A study of Gallus gallus with 6 samples.

Results

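Gene expression in the mandibular prominence (MNP) was compared between *talpid2* and control chick embryos at HH25. Genes were taken into this comparison if they lay within the authors' expression limits in all 6 libraries of the study, which held for 9128 of the 10337 deposited genes. The other 1209 genes, listed within the limits in fewer libraries, are described apart as a low-expression group. Libraries had been sequenced from 3 facial prominences of either genotype, the frontonasal (FNP), the maxillary (MXP) and the MNP, each combining tissue of 8 embryos. The control group is labelled only as control embryos and the mutant group only as *talpid2*, a recessive mutation kept in carriers, and no sex or treatment is given for either. The study's methods name inbred congenic and commercial white leghorn lines, without saying which of them these libraries came from. Both groups were incubated to the same stage, and each genotype is represented by 1 MNP library, so that no difference described here has a replicate check and embryo-to-embryo variation cannot be told apart from genotype. Each deposited value is a log2 value relative to the gene's own median over the 6 libraries. The log2 ratio of a gene is its *talpid2* MNP value minus its control MNP value.

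The mandibular prominence forms the lower jaw and, with other arch tissue, the tongue. Neural crest mesenchyme makes up most of it, covered by epithelium and joined by mesodermal muscle precursors, vessels and nerves. Endothelin signaling acts through DLX5, DLX6 and HAND2 to give this mesenchyme its lower jaw identity, whereas Hedgehog, BMP, WNT and FGF signals exchanged with the epithelium control its growth. *talpid2* has been linked to *C2CD3*, which encodes a centriolar protein needed to build the primary cilium, and the cilium is where vertebrate cells process the GLI transcription factors that answer to Hedgehog ligands.

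The defining genes of the mandible were high in both MNP libraries. *DLX6* stood at 3.41 in the control MNP and at 3.63 in the *talpid2* MNP, against -0.16 and -0.30 in the FNP and -0.04 and 0.04 in the MXP. *DLX5* had 1.48 and 1.69 in the MNP, against values from -0.54 to 0.15 in the other 4 libraries. *HAND2* had 6.70 and 6.91 in the MNP and between -0.53 and 0.14 elsewhere. All 3 genes therefore separated the MNP libraries from the rest without overlap, and their ratios in the MNP were 0.22 for *DLX6* and 0.21 for both *DLX5* and *HAND2*. *HAND2* was within the limits in only 2 libraries. The limits in the deposited table are 3.0 and 8607.81, on a scale that the table does not define, and the requirement for all 6 libraries removes genes that only the mandible expresses.

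Over the 9128 genes the median ratio was 0.00 with an SD of 0.19, and the central 95% lay between -0.41 and 0.38. A ratio of at least 1.5-fold, taken here as the size of a call, was reached by 128 genes (1.4%), of which 56 (0.613%) were higher and 72 (0.789%) lower in *talpid2*. At 2-fold 7 genes were higher and 8 lower. With *GAPDH* set to 0 in place of the authors' scaling every ratio drops by 0.08, and the split becomes 35 higher and 124 lower. The same spread was 0.23 in the FNP, with 229 genes called, and 0.21 in the MXP, with 167.

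The scaled values were whole multiples of the bases of 50-base reads, which allowed the reads of 4097 of these genes to be recovered, mostly genes of low and middle expression. In the following, reads are aligned bases divided by 50. One read was worth 0.866 units in the control and 1.03 units in the *talpid2* MNP library, so the control library was the deeper. Relative depths over the 6 libraries ran from 0.949 to 1.20, with the control MNP the highest. Each 95% interval of a ratio was taken from an exact Clopper-Pearson interval for the share of reads in *talpid2*. It covers counting error only, as does the exact Audic-Claverie test, which compares a pair of libraries and not genotypes. After Benjamini-Hochberg adjustment over all genes with recovered reads, 247 of the 4097 genes (6.03%) passed at 0.05, with 130 higher (3.17%) and 117 lower (2.86%) in *talpid2*. Large ratios were concentrated where reads were few. At least 1.5-fold was reached by 29.8% of the 104 genes with fewer than 50 reads in the MNP libraries combined and by 0.285% of the 1051 genes with 1000 or more.

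**Figure D1:**
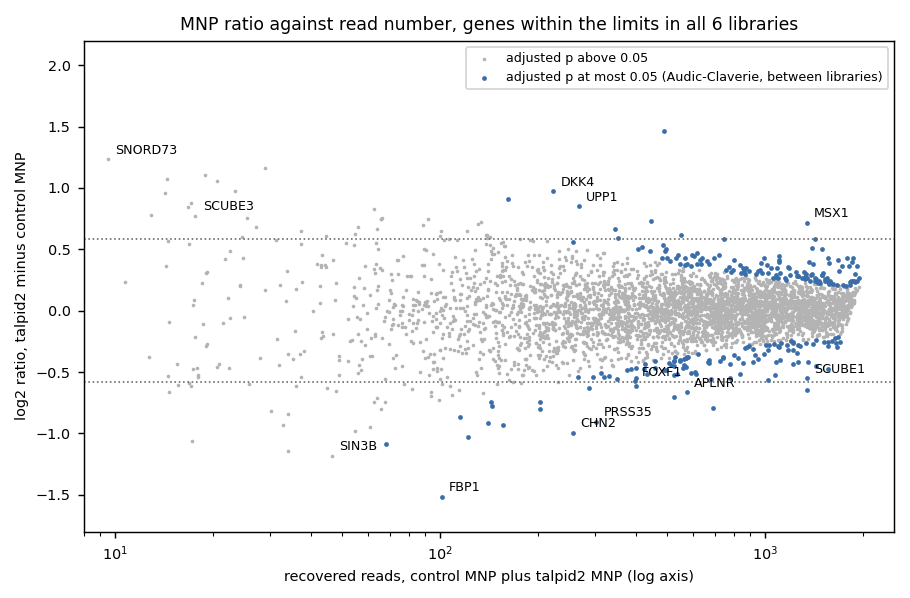
Each point is a gene with recovered reads that lay within the limits in all 6 libraries, plotted by its reads in the MNP libraries combined (log axis) and its log2 ratio of talpid2 to control MNP; dotted lines mark 1.5-fold. The cloud narrows to the right, and *MSX1* (0.72) is among the 0.285% of genes with 1000 or more reads that reached 1.5-fold.

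The lowest ratio of all 9128 genes was that of *SPON2*, which encodes a secreted matrix protein of the spondin family. It had 1.67 in the control and 0.05 in the *talpid2* MNP, a ratio of -1.62 (0.325-fold), with -0.03 and 0.03 in the FNP and -0.97 and -1.44 in the MXP. The control MNP was thus the only library with a high level, and the *talpid2* MNP sat at the level of the FNP. Reads were not recovered for *SPON2*, so the counting error of its ratio is unknown. *FBP1*, a gluconeogenic enzyme, had 0.51 in the control and -1.01 in the *talpid2* MNP, with 78.3 and 23.0 reads (ratio -1.51, 95% interval -2.25 to -0.82, adjusted p = 0.000197, exact Audic-Claverie test). Its *talpid2* MNP value was the lowest of the 6 libraries, the others lying between -0.46 and 0.51.

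Several of the other large falls were backed by enough reads to exceed counting error. *CHN2*, a GTPase-activating protein for Rac, had 179.9 and 75.7 reads (0.502-fold, interval of the log2 ratio -1.40 to -0.60), and its ratios in the FNP and MXP were -0.05 and 0.09. *PRSS35*, a serine protease-like gene, had 209.1 and 93.6 reads (ratio -0.91, interval -1.27 to -0.54). *PRSS35* was also lower in the *talpid2* FNP (-0.68) and MXP (-0.52), so that its 3 *talpid2* values lay below its 3 control values. *EGFLAM*, an extracellular matrix protein that binds dystroglycan, had 108.2 and 47.5 reads (ratio -0.94, interval -1.47 to -0.44). *TMEM108* had 137.6 and 66.2 reads (ratio -0.80, interval -1.26 to -0.38), and the cholesterol exporter *ABCA1* had 48.8 and 19.3 reads (ratio -1.08, interval -1.96 to -0.32, adjusted p = 0.0494 in the same exact test). Adjusted p was 2.36e-05 for *CHN2*, 2.61e-05 for *PRSS35*, 0.00486 for *EGFLAM* and 0.00530 for *TMEM108* (exact Audic-Claverie test). The ratios of *SIN3B* (-1.18), a transcriptional co-repressor, *CMTM4* (-0.95), the kinase *JAK2* (-0.84) and the semaphorin *SEMA4D* (-0.82) rested on 33.9, 42.5, 23.1 and 20.4 reads in the control library. None of these last 4 passed after adjustment, and neither did the small RNAs *MIR1683* (-1.06) and *SNORD12* (-0.98). Reads were not recovered for *PKDCCA* (-0.91), a relative of the secreted kinase gene *PKDCC*, or for *AKR1D1* (-0.81), a steroid reductase.

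Among the 15 largest rises of genes with a symbol, 9 were small nucleolar RNAs, which guide the chemical modification of ribosomal and other RNA. Their ratios ran from 1.23 for *SNORD73* to 0.78 for *SNORD75*, with *snoZ40*, *SNORA36*, *SNORD36*, *SNORA32*, *SNORA4*, *SNORA5* and *SNORA71* between. Each rested on at most 18.9 reads in the *talpid2* library, and none passed after adjustment. The highest ratio belonged to *MRPL36*, a protein of the mitochondrial ribosome, with -0.39 in the control and 1.45 in the *talpid2* MNP (ratio 1.84). Its reads were not recovered, and its ratios were -1.19 in the FNP and 0.999 in the MXP. *DKK4*, a secreted antagonist of WNT signaling, had 0.28 in the control and 1.26 in the *talpid2* MNP, with 84.0 and 138.6 reads (ratio 0.98, interval 0.58 to 1.39, adjusted p = 7.51e-05, exact test). *DKK4* was higher in *talpid2* in the FNP (0.72) and MXP (0.54) as well, and in each genotype the MNP had its highest level. *UPP1*, which breaks down uridine, had 106.5 and 161.3 reads (ratio 0.85, interval 0.48 to 1.21, adjusted p = 0.000242, exact test). The remaining large rises were *C8orf48* (0.94), *TMEM171* (0.82) and *SCUBE3* (0.77), and of these *SCUBE3* had 7.26 and 10.4 reads, with an interval from -0.77 to 2.40.

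**Figure D2:**
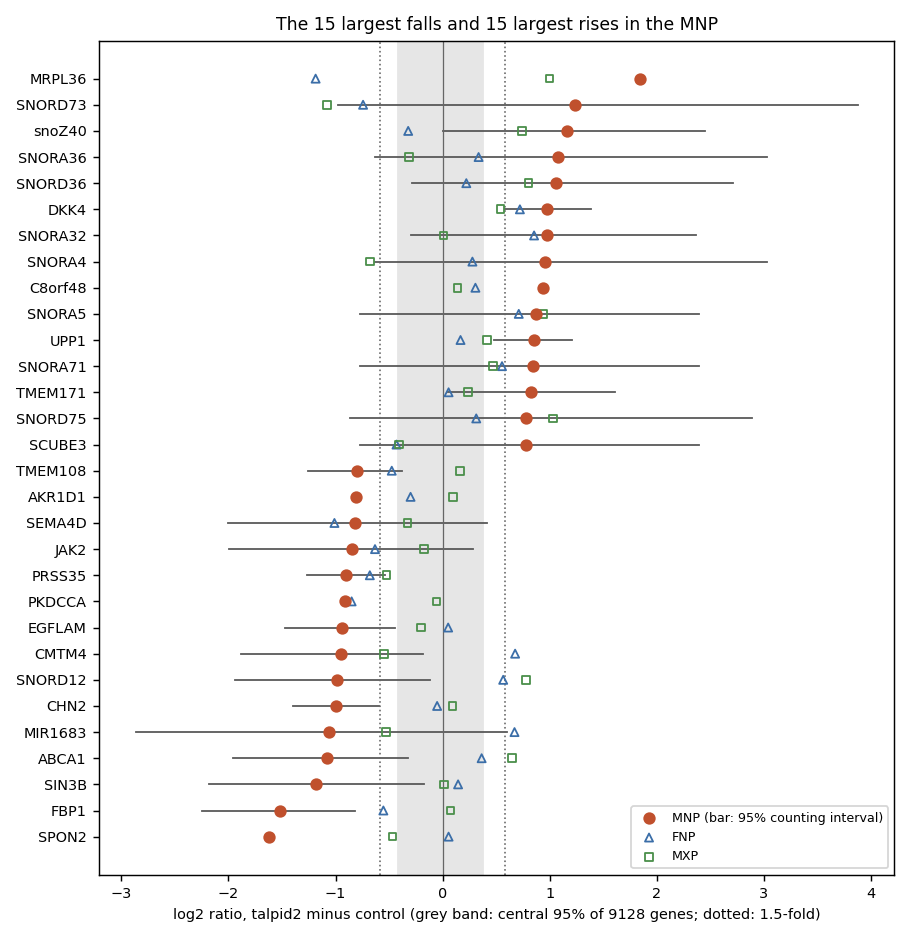
Log2 ratios of talpid2 to control for the 15 named genes with the lowest and the 15 with the highest ratio in the MNP; filled circles are the MNP with its 95% counting interval where reads were recovered, triangles the FNP and squares the MXP, and the grey band holds the central 95% of all 9128 genes. *SPON2* is lowest at -1.62 and *MRPL36* highest at 1.84, and most of the small nucleolar RNAs have intervals that cross 0.

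The Hedgehog pathway was read from its ligands and their release, its receptors and transducers, and its target genes. *SHH*, the ligand, was within the limits in 5 libraries and had -0.14 in the control and 0.14 in the *talpid2* MNP, with 169.0 and 172.0 reads (ratio 0.28, interval -0.04 to 0.59). At this depth no difference could be detected. Its listed interval on chromosome 2 (7684550 to 8084907) also holds *INSIG1*, *RBM33* and 1 further gene, whose reads may not be separated from its own. Among the helpers of ligand release, *SCUBE1*, which carries SHH away from the cell surface, had 0.39 and -0.16 in the MNP, with 856.2 and 490.9 reads (ratio -0.55, interval -0.71 to -0.39, adjusted p = 3.82e-09, exact test), and its ratio in the FNP was 0.57. *HHAT*, which attaches the palmitate of the ligand, had -0.22 (interval -0.49 to 0.06), and *DISP1*, which releases it from the membrane, had -0.12.

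Of the 13 Hedgehog targets within the limits in all 6 libraries, none reached 1.5-fold in either direction, against 1.4% of all genes, and 10 had a negative ratio. Their median was -0.25, against 0.00 for all genes. The same targets had medians of -0.19 (FNP) and 0.12 (MXP). *FOXF1*, a mesenchymal Hedgehog target, had 0.25 in the control and -0.33 in the *talpid2* MNP, with 254.0 and 142.9 reads (ratio -0.58, interval -0.88 to -0.27, adjusted p = 0.00488, exact test), and 0.822% of all genes had a lower ratio. *PTCH1*, the receptor gene that the pathway itself induces, had 0.24 in the control and -0.24 in the *talpid2* MNP (ratio -0.48), and 1.6% of all genes had a lower ratio. *GAS1*, a co-receptor that Hedgehog signaling represses in other settings, had 0.74 and 0.24 (ratio -0.50). The feedback inhibitor *HHIP*, within the limits in 5 libraries, had 0.67 and 0.07, with 241.7 and 133.5 reads (ratio -0.60, interval -0.92 to -0.29, adjusted p = 0.00439, exact test). *FOXF1*, *PTCH1*, *GAS1* and *HHIP* were thus all lower in the *talpid2* than in the control MNP library, whereas *BMP4* was the highest of the list at 0.49. Of the other targets in the low-expression group, the forkhead gene *FOXL1* had 34.8 and 12 reads (ratio -1.28, interval -2.37 to -0.31, adjusted p = 0.0695, exact test), and *OSR1* had 669.8 and 611.3 reads (ratio 0.12, interval -0.04 to 0.28). *PTCH1* and *GAS1* lie on chromosome Z, where the median ratio of all genes was -0.06.

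The 20 receptors and transducers within the limits in all 6 libraries, a list that overlaps with that of the targets, had a median ratio of -0.08, and 16 were negative. None reached 1.5-fold. Among the members outside the target list the values were small, from -0.18 for *SMO*, the transducer that the receptor holds in check, to 0.20 for the ciliary protein gene *EVC2*. *GLI3*, the main repressor of the pathway, had 486.6 and 381.8 reads (ratio -0.10, interval -0.29 to 0.10). The entry for *GLI2* had a ratio of -0.06, but its interval of 445159 bases on chromosome 7 carries the identifier of a neighboring gene, *RALB*, so its value cannot be read as *GLI2* alone.

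**Figure D3:**
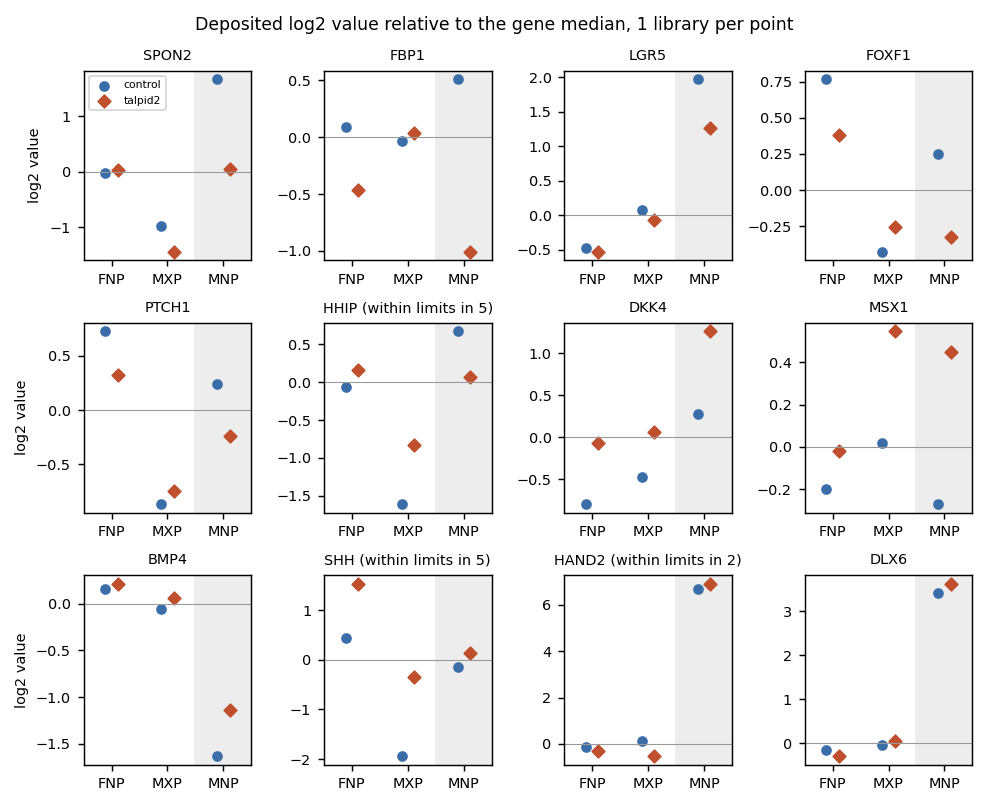
Deposited log2 values relative to each gene's median for 12 genes in the 3 prominences, with 1 library per point (circles control, diamonds talpid2; the MNP is shaded, and each panel has its own scale). *SPON2* and *LGR5* are high in the control MNP and lower in the talpid2 MNP, *FOXF1*, *PTCH1* and *HHIP* are lower in the talpid2 MNP, *DKK4*, *MSX1* and *BMP4* are higher, and *HAND2* and *DLX6* separate the MNP from the other prominences.

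In the list for mandibular arch patterning, 26 of 53 genes were within the limits in all 6 libraries. Their median ratio was 0.08, close to 0 once *GAPDH* is set to 0, and 15 were positive. The homeobox gene *MSX1*, which marks distal arch mesenchyme, was the only one of these 26 past 1.5-fold. It had -0.27 in the control and 0.45 in the *talpid2* MNP, with 563.5 and 778.0 reads (ratio 0.72, interval 0.56 to 0.88, adjusted p = 1.71e-16, exact test). *MSX1* was also higher in *talpid2* in the FNP (0.18) and MXP (0.53), so its control MNP value was the lowest of the 6. The transcriptional co-activator *EYA1* had 0.41, *GBX2* 0.32 and *MSX2* 0.30, while *GSC*, a marker of the mandible, differed by -0.04. The lowest ratio of the 26 was that of *EDNRA* (-0.38), the receptor through which endothelin sets lower jaw identity. Of the 7 members in the low-expression group 5 were negative and 3 at least 1.5-fold lower. In that whole group 41.9% were positive and 17.0% at least 1.5-fold lower. *MEF2C* (-3.05) and *EMX2* (-1.92) were among these 3 members and are described further on.

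BMP signaling induces MSX genes in facial mesenchyme. The BMP and TGF-beta list, which mixes ligands, receptors and induced genes, was spread around 0 when taken as a whole. The 28 genes of the BMP and TGF-beta list had a median of -0.0021, with 14 on either side and none past 1.5-fold. *BMP4* had -1.63 in the control and -1.14 in the *talpid2* MNP, with 129.5 and 152.9 reads (ratio 0.49, interval 0.15 to 0.85, adjusted p = 0.0621, exact test). The MNP libraries had the lowest *BMP4* levels of the 3 prominences in both genotypes. After *BMP4* the next highest ratio was that of *ID1*, a gene induced by BMP (0.49), and the lowest was that of the co-receptor *TGFBR3* (-0.35). *ID4* (0.38), *BAMBI* (0.33), *SMAD6* (0.28) and *ID2* (0.17) were positive as well. Receptor genes lay on both sides, with -0.27 for *BMPR2*, -0.24 for *BMPR1A* and 0.12 for *ACVR2B*.

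The 36 WNT genes had a median of -0.09, with 1 past 1.5-fold in each direction. Besides *DKK4*, the receptor gene *FZD10* was higher, with 299.6 and 338.4 reads (ratio 0.43, interval 0.20 to 0.65, adjusted p = 0.00819, exact test). *LGR5*, a receptor for the WNT-enhancing R-spondins, was high only in the mandible. It had 1.97 in the control and 1.27 in the *talpid2* MNP (ratio -0.70), against values from -0.53 to 0.07 in the other 4 libraries. The co-receptor *LRP6* had -0.44, and the feedback target *AXIN2* had 0.07. Among 17 FGF genes the median was -0.09 and none reached 1.5-fold. The receptor *FGFR3* had 223.1 and 127.4 reads (ratio -0.56, interval -0.89 to -0.24, adjusted p = 0.0120, exact test), and the epithelial ligand *FGF8* had 77.1 and 81.4 reads (ratio 0.33, interval -0.14 to 0.80).

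Retinoic acid and Notch genes were few. Of 8 retinoic acid genes, with a median of -0.04, the receptor *RXRA* had 203.0 and 117.1 reads (ratio -0.54, interval -0.88 to -0.21, adjusted p = 0.0233, exact test), and *CYP26B1*, which degrades retinoic acid, had 71.0 and 85.8 reads (ratio 0.53, interval 0.06 to 1.0, adjusted p = 0.189, exact test). *CYP26B1* was far lower in the MNP (-1.77 and -1.24) than in the FNP (1.29 and 1.23). The 7 Notch genes had a median of -0.24, from -0.35 for the receptor *NOTCH1* to 0.41 for the target *HES1*. In all 3 prominences *HES1* was higher and *NOTCH1* lower in *talpid2*.

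Extracellular matrix genes were mostly lower in the *talpid2* MNP library. Of 43 genes, 31 had a negative ratio, the median was -0.16, and 2 were past 1.5-fold, both downward. Besides *SPON2* this was *SPON1*, its relative, with 0.62 and 0.03 (ratio -0.59). *POSTN*, a matricellular protein of periosteum and ligament, had -0.36 and -0.94 (ratio -0.58). The fibrillar collagen gene *COL3A1* was high only in the mandible, with 2.79 in the control and 2.29 in the *talpid2* MNP (ratio -0.50). The collagen VI genes *COL6A1* (-0.44), *COL6A2* (-0.41) and *COL6A3* (-0.40) had much the same ratio, and 19 of the 23 collagen genes measured were negative, with medians of -0.18 (MNP), -0.29 (FNP) and -0.04 (MXP). *EFEMP1*, a fibulin, was the highest of the list at 0.41 (124.3 and 138.1 reads, interval 0.05 to 0.77). Axon guidance genes, which also pattern vessels and mesenchyme, had 28 of 33 negative ratios and a median of -0.15. Of these *CXCL12*, a chemokine, had 563.7 and 368.6 reads (ratio -0.36, interval -0.55 to -0.17, adjusted p = 0.00701, exact test). The cartilage and bone list had a median of 0.13 over 12 genes, from -0.34 for *TRPS1* to 0.39 for the cartilage matrix gene *MATN4*.

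**Figure D4:**
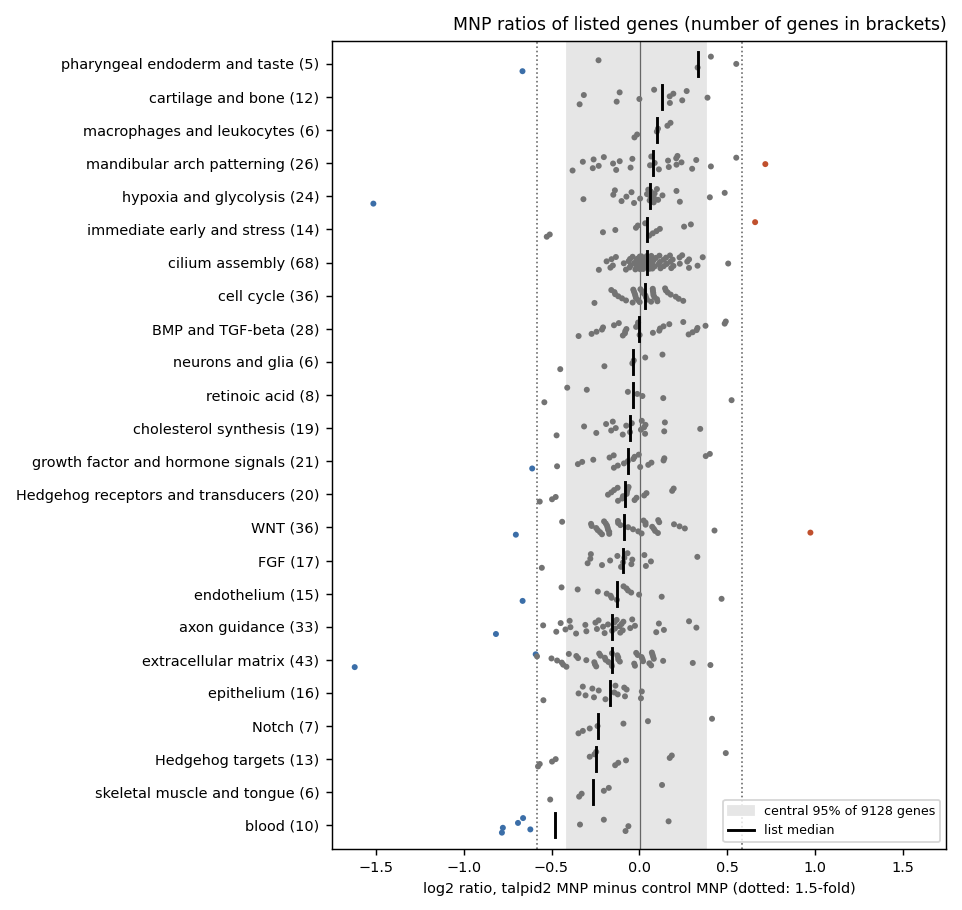
Log2 ratios of talpid2 to control MNP for the members of each gene list within the limits in all 6 libraries (lists with at least 5 such members; dots are genes, black bars list medians, colored dots lie past 1.5-fold, and the grey band holds the central 95% of all genes). The blood list has the lowest median at -0.48, and the cilium assembly list lies close to 0 at 0.04.

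Markers of some other cell types in the prominence, chiefly blood, epithelium, endothelium and muscle, also had lower medians in *talpid2*, and their part in the results was not tested. In bulk tissue fewer cells of a type and less RNA per cell cannot be told apart. Of 10 blood genes 5 were past 1.5-fold, all downward, against 0.789% of all genes, and the median was -0.48. These were the haemoglobin genes, related genes of which some may share reads, with ratios from -0.78 to -0.62 for *HBE*, *HBZ*, *HBE1*, *HBA1* and *HBAD*. In the FNP and MXP the blood list had medians of -0.88 and -0.71. The highest of the list at 0.17 was the entry named for the hematopoietic regulator *TAL1*. This entry is annotated as a pseudogene and had 36 and 33.9 reads (interval -0.55 to 0.89).

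Of 16 epithelial genes 14 were negative, with a median of -0.17 and none past 1.5-fold, against medians of 0.08 (FNP) and -0.07 (MXP). The desmosomal cadherin *DSG2* had 731.4 and 491.1 reads (ratio -0.32, interval -0.49 to -0.15, adjusted p = 0.00537, exact test). The general markers *CDH1* (-0.26), *TP63* (-0.23) and *EPCAM* (-0.19) were also lower, and *GRHL3* was the highest at 0.01.

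Of 15 endothelial genes 13 were negative, with a median of -0.13. The apelin receptor gene *APLNR* was past 1.5-fold, with 0.38 in the control and -0.29 in the *talpid2* MNP and 375.8 and 199.0 reads (ratio -0.66, interval -0.92 to -0.41, adjusted p = 1.21e-05, exact test). *FLT4*, the receptor for VEGFC, had 348.9 and 215.4 reads (ratio -0.44, interval -0.70 to -0.20, adjusted p = 0.0104, exact test). Of the pan-endothelial genes, *KDR* (-0.13), *TIE1* (-0.16) and *CDH5* (-0.06) differed less. *PECAM1*, also pan-endothelial, went the other way and was the highest of the list at 0.47. Macrophage genes (6 genes, median 0.10) lay between -0.03 for *LCP1* and 0.18 for *CTSS*, and neural and glial genes (6 genes) had a median of -0.04 and were highest for *FABP7* at 0.13. The gene *EDNRB*, a receptor of neural crest and endothelium, had 259.1 and 142.5 reads (ratio -0.61, interval -0.92 to -0.31, adjusted p = 0.00203, exact test).

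Skeletal muscle genes were mostly part of the low-expression group. Only 6 of the list were within the limits in all 6 libraries, with a median of -0.26 and 5 negative. The sarcomeric actin gene *ACTC1* had 3.68 in the control and 3.18 in the *talpid2* MNP (ratio -0.51), against values from -0.35 to 0.13 in the other libraries. Among the 15 muscle genes of the low-expression group 14 were negative and 4 at least 1.5-fold lower, where 41.9% of that whole group were positive and 17.0% at least 1.5-fold lower. The troponin genes *TNNI2* (95.8 and 35.1 reads, ratio -1.20, interval -1.8 to -0.63, adjusted p = 0.000689, exact test) and *TNNT2* (57.1 and 22.9 reads, ratio -1.07, interval -1.82 to -0.33, adjusted p = 0.0393) had the lowest ratios after *MEF2C*, followed by the intermediate filament gene *DES* (119.9 and 63.9 reads, ratio -0.65, interval -1.11 to -0.20, adjusted p = 0.0479). Other members lay nearer to 0, among them the early myogenic regulators *MYF5* (-0.40, interval -1.21 to 0.33) and *MYOD1* (-0.06). The later muscle genes *TNNI1* (-0.36), *TTN* (-0.34) and *MYL1* (-0.04) did so too. Between these and *DES* lay *CHRNA1* (-0.47, interval -0.75 to -0.20) and *TNNT3* (-0.45, interval -0.74 to -0.16), also later muscle genes. Whether early regulators and later muscle genes differ was not tested.

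Genes for building the cilium that lay within the limits in all 6 libraries showed no shift of this size. Of 68 genes 49 were positive, the median was 0.04 (-0.04 with *GAPDH* set to 0), and none reached 1.5-fold. The extremes were *NPHP4* (-0.23, interval -0.59 to 0.14) and *B9D1* (0.51, interval 0.13 to 0.87, adjusted p = 0.0900, exact test), both genes of the ciliary transition zone. The 2 members of the list in the low-expression group were both negative, and 1 of them was at least 1.5-fold lower. *RFX3*, a regulator of cilium genes in that group, was lower in *talpid2* and is described further on. At the *talpid2* candidate locus, *C2CD3* had 0.07 in the control and -0.08 in the *talpid2* MNP, with 273.3 and 205.5 reads (ratio -0.16, interval -0.42 to 0.11). The neighboring candidates *NUP98* and *NEU3* had ratios of -0.15 and 0.28. The cell cycle list had a median of 0.03 over 36 genes, from -0.26 for *CDK6* to 0.25 for *FOXM1*, with none past 1.5-fold. With *GAPDH* set to 0 the medians of this list and of the next 2 turn negative.

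Among metabolic and stress genes, only single members stood out. In the hypoxia and glycolysis list (24 genes, median 0.06) lactate dehydrogenase *LDHA* had 0.49 and the hypoxia-responsive growth factor *VEGFA* 0.40, while *FBP1* was the 1 member past 1.5-fold. The immediate early and stress list (14 genes, median 0.05) held *CCN2*, a target of YAP and TGF-beta signaling, with -0.62 in the control and 0.04 in the *talpid2* MNP (ratio 0.66, or 0.58 with *GAPDH* set to 0). *SOCS2*, a feedback inhibitor of growth hormone signaling, had 680.0 and 396.0 reads (ratio -0.53, interval -0.71 to -0.35, adjusted p = 1.02e-06, exact test), and its ratio in the MXP was -1.25. Cholesterol synthesis genes, which Hedgehog ligands depend on, had a median of -0.05 over 19 genes, from -0.47 for *STARD4* to 0.35 for *HSD17B7*, for which 524.8 and 560.3 reads gave an interval of 0.17 to 0.52. In the short list of pharyngeal endoderm and taste genes *SOX2*, a factor of the pharyngeal and oral epithelium, had 0.11 and -0.55 (ratio -0.67, interval -1.29 to 0.00061, adjusted p = 0.241, exact test).

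Classes of genes that share structure rather than function also differed. At least 1.5-fold was reached by 27.9% of 61 small nucleolar RNAs (12 up and 5 down) and by 11.1% of 27 microRNAs, against 1.15% of 8945 protein-coding genes. Of 54 cytosolic ribosomal protein genes 50 were positive (median 0.11), as were 51 of 57 mitochondrial ribosomal protein genes (median 0.08) and 27 of 28 NADH dehydrogenase subunit genes (median 0.08). With *GAPDH* set to 0 the last 2 medians are close to 0. Among protein-coding genes the median ratio went from 0.03 for those of shortest genomic span to -0.04 for those of longest span, each group being 1 of 5 of equal size. The 318 genes of chromosome Z had a median of -0.06, and 17 of them (5.35%) were called, 13 of these downward, among them *FBP1*, *ABCA1*, *EGFLAM*, *JAK2* and *SEMA4D*. On the numbered chromosomes 1.26% were called. No sex is given for the pooled embryos, and its part was not tested.

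The FNP and MXP were compared in libraries of their own, but the prominences appear to have been taken from the same embryos of each genotype, so the comparisons are not independent. Over all 9128 genes the FNP ratio was positive for 50.3% and past 1.5-fold for 2.51%. The MXP ratio was positive for 49.4% and past 1.5-fold for 1.83%. Of the 56 genes at least 1.5-fold higher in the *talpid2* MNP, 38 were also higher in the *talpid2* FNP and 39 in the MXP, with 26 higher in both. Of the 72 lower genes, 39 had a negative ratio in the FNP, 45 had one in the MXP, and 29 in both, which for the FNP is near the share over all genes. Past 1.5-fold in the same direction in all 3 prominences were 2 of the higher and 6 of the lower genes. Those lower genes included the haemoglobin genes *HBE*, *HBE1*, *HBZ*, *HBA1* and *HBAD*, related genes of which some may share reads. The share of all genes past 1.5-fold in all 3 prominences was not computed. For 33 of the higher and 42 of the lower genes the ratio was within 1.5-fold in both other prominences. The called genes were thus past 1.5-fold elsewhere more often than all genes were. Of the higher genes, 10 were so in the same and 5 in the opposite direction in the FNP, and 6 and 6 in the MXP. Of the lower genes the numbers were 12 and 8 in the FNP and 13 and 6 in the MXP. These counts include ratios that rest on few reads.

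The low-expression group varied far more, with an SD of 0.69, and 28.1% of its 1209 genes reached 1.5-fold. A gene could enter it by passing the limits in a single library, so a gene that passed only through an MNP library had to differ. Of 1056 genes with recovered reads 84 (7.95%) passed the exact test after adjustment, 23 (2.18%) higher and 61 (5.78%) lower. *TAC1*, the precursor of substance P, had 41.4 and 3.58 reads (ratio -3.28, interval -5.05 to -1.64), and *MEF2C*, a factor of muscle and neural crest, 20.5 and 2.08 reads (ratio -3.05, interval -6.28 to -1.11). *FEM1C* had 10.9 reads in the control and less than 1, counted as 0, in the *talpid2* MNP. This is 3.06-fold lower against a floor of 3 counts per library. Its interval reached up to -1.07, a smaller difference. Against that floor *SNORA23* was 2.15-fold and *SNORA54* 2.13-fold lower, but both intervals reached up to -0.52, again a smaller difference. Upward, *NQO1*, an antioxidant enzyme, had 3 and 15 reads (ratio 2.57, interval 0.75 to 5.0), and *KLF2*, a factor induced by flow in endothelium, 2.64 and 12.4 reads (ratio 2.49, interval 0.36 to 4.72). *FSD1L* and *snoZ30* stood at the lowest value that the scaling allows in the control MNP, where 1 read and none cannot be told apart. Against the same floor of 3 counts they were 2.04-fold and 1.94-fold higher in *talpid2*. Both of their intervals took the control as 0 reads and began at 0.13, a much smaller difference. With 1 control read they would begin lower. *SNORD87* was at its lowest value in the control MNP. None of these 10 genes had more than 41.4 reads in either MNP library where reads were recovered. *KLF2*, *FSD1L*, *snoZ30*, *SNORA23* and *SNORA54* did not pass the exact test after adjustment.

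Larger read numbers were found among the genes that mark the mandible in both genotypes. There were 74 named genes at least 2-fold higher in both MNP libraries than in each of the other 4, and 59 of them belonged to the low-expression group. Their median ratio was -0.17, with 49 negative and 25 positive, 12 at least 1.5-fold lower and 1 at least 1.5-fold higher. Skeletal muscle genes are among these 74, such as *TNNI2* (-1.20), *TNNT2* (-1.07), *ACTC1* (-0.51), *MYF5* (-0.40) and *MYOZ2* (0.11). The median therefore repeats the muscle result in part. The mandible markers *HAND2*, *DLX5* and *DLX6*, also among the 74, had positive ratios. In the whole low-expression group 41.9% were positive, 17.0% were at least 1.5-fold lower and 11.1% at least 1.5-fold higher. These shares are no like background for the 74, which had to be high in both MNP libraries. Genes high in only 1 of them, such as *SPON2*, were left out beforehand. The 15 of the 74 outside that group were within the limits in all 6 libraries, where 0.789% of genes were at least 1.5-fold lower. Of these 15, *LGR5* (-0.70) was past that size. *AQP1*, a water channel, had 4.43 in the control and 2.37 in the *talpid2* MNP, with 730.7 and 148.0 reads (ratio -2.05, interval -2.32 to -1.79). *RXFP1*, the relaxin receptor, had 319.2 and 89.7 reads (ratio -1.58, interval -1.93 to -1.23), and *BHMT2* had 724.8 and 410.0 reads (ratio -0.57, interval -0.75 to -0.39). *GSC* (-0.04), *PENK* (0.03) and *PITX1* (0.16) lay nearer to 0. The 1 gene past 1.5-fold upward was *CNGA3*, a cyclic nucleotide-gated channel, with 72.5 and 92.7 reads (ratio 0.61, interval 0.14 to 1.06, adjusted p = 0.0984, exact test). Outside these 74 genes, *RFX3*, a regulator of cilium genes within the limits in a single library, had 505.7 and 106.8 reads (ratio -1.99, interval -2.30 to -1.69). *EMX2*, a homeobox gene of the patterning list and likewise not among the 74, had 77.4 and 17.2 reads (ratio -1.92, interval -2.78 to -1.16).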

How the data were processed

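Total RNA extracted with Trizol was made into libraries by Illumina TruSeq and Nugen Ovation V2 methods, sequenced on an Illumina HiSeq and analyzed by the authors in GeneSpring against an Ensembl chick genome; the aligner and assembly are not given in the sources used here. The deposited log2 values had been scaled per library by the authors, raised to at least 1 before taking logarithms, and centered on each gene's median over the 6 libraries. MNP values were subtracted with no pseudocount. Reads were recovered as the smallest whole numbers of bases, up to 1000 reads, that gave all 6 values. A value raised to 1 was counted as 0 reads, although 1 read in the control MNP library also falls below 1. With wrong steps 0.0833% of 1200 genes had a solution. The procedure was tested on simulated data, where 97.9% of recoverable genes were exact and 2.20% of solutions were too low, typically by a factor of 2. Python 3.11.15, numpy 2.4.6, scipy 1.17.1, pandas 2.3.3 and matplotlib 3.10.9 were used. Symbols came from the deposited table and RefSeq (GRCg7b), which matched 7479 of 8274 Entrez identifiers. Of repeated symbols, the entry passing in most libraries was taken. Named by rule were genes that the study names, the 15 largest rises and falls with a symbol, the 5 in each direction of the low-expression group, list members past 1.5-fold, the extremes of each list and 3 mandible markers. Other genes were named after their values were seen. The members and the 26 lists were chosen with earlier results of these data known. Alternatives were the scaling, the fold, the genes kept and a pseudocount of 10 reads. *GLI1* and chromosome W were not analysed here, and a few further genes are not reported here.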

Additional observations from a re-analysis of the deposited data

Results flagged for a closer look

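Some genes past 1.5-fold in the MNP were past 1.5-fold in the opposite direction in another prominence. With 1 library per group these differences were not tested. *MRPL36* had a ratio of 1.84 in the MNP and -1.19 in the FNP. *ABCA1* had -1.08 in the MNP and 0.65 in the MXP, and *CMTM4* -0.95 in the MNP and 0.68 in the FNP. The small RNAs were *MIR1683* (-1.06 in the MNP and 0.67 in the FNP), *SNORD12* (-0.98 in the MNP and 0.78 in the MXP), *SNORA4* (0.96 in the MNP and -0.68 in the MXP) and *SNORD73* (1.23 in the MNP, -0.74 in the FNP and -1.08 in the MXP). For the small RNAs and *CMTM4* the reads of the control MNP library numbered 42.5 at most, and for *MRPL36* they were not recovered.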

How the results depend on the processing

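The 128 calls of at least 1.5-fold became 159 with *GAPDH* as the reference (35 higher and 124 lower), 127 with the median of autosomal genes set to 0, 103 among protein-coding genes and 111 off chromosome Z. They became 15 at 2-fold, 468 over all deposited genes, and 36 with a pseudocount of 10 reads, against 98 without it over the same 4097 genes with recovered reads. Among the named genes the pseudocount moved 15 called ratios below 1.5-fold, *EDNRB*, *JAK2*, *SCUBE3*, *SEMA4D*, *SOX2*, *MIR1683* and 9 small nucleolar RNAs, and *GAPDH* did so for *CCN2*; no called ratio of a named gene changed sign. Of the list medians, 4 moved by more than the SD of all genes: Notch to -0.020 over all 10 deposited members, and, with the pseudocount, retinoic acid to -0.29, pharyngeal endoderm and taste to -0.11 and blood to 0.034. These last 3 rest on the 3, 2 and 2 members with recovered reads. No paired analysis was possible because each group has 1 library, and no replicate could be left out for the same reason. Reads were not recovered for 5031 of the 9128 genes, mostly those with many reads, so their counting error is unknown.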

Other observations

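Genes without a symbol were not named by rule, but 4 of them were past 2-fold in the MNP. ENSGALG00000018479 on chromosome Z had 146.8 reads in the control and 340.9 in the *talpid2* MNP (ratio 1.47, 95% interval 1.18 to 1.76), with 1.98 in the FNP and 1.84 in the MXP. ENSGALG00000007923 on chromosome 20 had 86.3 and 35.4 reads (ratio -1.03, interval -1.65 to -0.46), with 0.11 in the FNP and 0.23 in the MXP. ENSGALG00000023861 on chromosome 3 had a ratio of -1.20 in the MNP with no recovered reads, and LOC768418 on chromosome Z had -1.15 with 24.7 and 9.38 reads.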
